A study of Homo sapiens with 18 samples.

Results

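TMEM30B, TMEM125, BSPRY, C1orf210, MAB21L4, BICDL2, PLA2G4F, TMC4, PRRG4 and C6orf132 are 10 little-studied protein-coding genes, out of 60642 gene symbols counted by RNA sequencing in 18 libraries. They were chosen by their fold change between HT-29 iZEB1 libraries with doxycycline (DOX) and DMSO and those with DMSO alone, where they were among the strongest falls, so their values in that contrast are a description and carry no test. HT-29 iZEB1 is a human HT-29 colorectal cancer line that carries ZEB1 under a DOX-inducible system, and SW620 is a second human colorectal cancer line with no inducible gene. Both lines are labelled epithelial. HT-29 iZEB1 cells received the vehicle DMSO alone, RepSox at 10 µM, DOX at 1 µg/ml with DMSO, or DOX at 1 µg/ml with RepSox at 10 µM. SW620 cells received DMSO alone or RepSox at 10 µM, and each of the 6 groups had 3 libraries. The treatment protocol gives 24 h for RepSox and DOX, whereas the design text gives 48 h for DOX. The sources used here do not give the promoter of the inducible gene, nor whether the HT-29 iZEB1 line is 1 clone. Unmodified HT-29 cells with DOX were not analysed here, so an effect of DOX itself and one of induced ZEB1 cannot be told apart.

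ZEB1 is a zinc-finger transcription factor that binds E-box sequences. It represses many genes of epithelial identity in the epithelial-mesenchymal transition, the change by which epithelial cells lose their contacts and polarity. TGF-β is a well-known inducer of that transition, acting through its type I receptor ALK5 and SMAD proteins, and RepSox blocks the kinase of ALK5. Most of the 10 genes encode membrane proteins or proteins of epithelial cells whose roles are known only in outline. TMEM30B (CDC50B) is a partner subunit of P4-ATPases, the flippases that move phospholipids between membrane leaflets, and PLA2G4F is a cytosolic phospholipase A2 that releases fatty acids from phospholipids.

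Library totals ran from 36.5 to 39.8 M counts. ZEB1 itself was read at 8.55 ± 1.6 CPM with DMSO (counts scaled to library size with TMM factors, mean ± SD, n = 3 here and below) and at 378 ± 7 with DOX and DMSO. It was at 5.38 ± 0.35 with RepSox alone and at only 16 ± 1.4 with DOX and RepSox, and in SW620 it was at 21.5 ± 2.5 with DMSO and 23.7 ± 0.83 with RepSox. The DOX libraries thus did not hold the same ZEB1 level with and without RepSox, and how much of the members' values moves with that level was not tested. Of 8 epithelial markers, 7 were above 1 CPM in every group, and their sum per library was 8740 to 9900 CPM with DMSO, 4430 to 4860 with DOX and DMSO and 9960 to 10900 with DOX and RepSox. All 8 fibroblast markers were below 1 CPM in HT-29 iZEB1, with COL1A2 at 0, and 3 of them were above 1 CPM in SW620, where they summed to 62.1 to 69.1 CPM. Of 7 leukocyte markers 2 were above 1 CPM in HT-29 iZEB1, where LYZ, a lysozyme gene, made up nearly all of the sum (1340 ± 39 CPM with DMSO, 1760 ± 13 with DOX and DMSO). Of 6 endothelial markers 2 were above 1 CPM in HT-29 iZEB1 and 1 in SW620. In HT-29 iZEB1 these were ESAM (59.1 ± 4.3 CPM with DMSO, 36.9 ± 3 with DOX and DMSO) and TEK (2.34 ± 0.54 and 9.72 ± 0.39). The part of these marker levels in the members' values was not tested. In HT-29 iZEB1, replicate 1 of DOX with RepSox, replicate 1 of RepSox alone and replicate 2 of DOX with DMSO stood further from their group mates than those did from each other. The same held for replicate 3 of SW620 with DMSO and, less clearly, for replicate 3 of HT-29 iZEB1 with DMSO. Since no label says that the replicates were separate cultures, a p-value here speaks of the spread among these libraries alone, and that spread may be technical. In bulk RNA, fewer cells that express a gene and less of its RNA per cell cannot be told apart.

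E-box letters known for ZEB1 stood close to the start of most of the 10 genes, and the stretches that hold them are printed here to show how they are placed. The strings CAGGTG and CAGGTA were searched on both strands (CACCTG and TACCTG on the gene's own strand) in RefSeq promoter windows of GRCh38.p14, which run from 250 bases before to 50 bases after the annotated start. Matches may overlap in part, but none did in these windows. A window was found for 9 of the 10 genes, MAB21L4 having 2 windows, and BICDL2 had no entry. Capitals mark the matches, and each stretch is written 5′ to 3′ on the strand of its gene.
TMEM30B: gaaggtggTACCTGagcCAGGTAggagcca
TMC4: ggcCACCTGctggcCAGGTAcaCACCTGcc
C6orf132: ctgcctttTACCTGgcCAGGTAgctcgcat
PRRG4: gcgcggcCAGGTGtcccCAGGTAgccgcct
BSPRY: cccgccgcCACCTGcgaCAGGTGgagcgca
C1orf210: ccactgcctccgCAGGTGagtcaagctctg
MAB21L4: gttcagctatttCACCTGccacactgtgct
PLA2G4F: tgctgcctgtcaCACCTGagccagcagttt
The stretch of TMEM30B lies at chr14:61281546-61281575 on the minus strand, upstream of the RefSeq start but inside the single exon that GENCODE 29 annotates. That of TMC4, with 3 matches in 30 bases, lies at chr19:54173185-54173214 on the minus strand, and it too is upstream of the RefSeq start and inside the GENCODE 29 gene. The C6orf132 stretch at chr6:42142619-42142648 (minus strand) and the BSPRY stretch at chr9:113349532-113349561 (plus strand) span the start. The PRRG4 stretch is at chr11:32829888-32829917 (plus strand) and the C1orf210 stretch at chr1:43285631-43285660 (minus strand), both upstream of the start. The MAB21L4 stretch at chr2:240896149-240896178 (minus strand) spans the RefSeq start, and the PLA2G4F stretch at chr15:42156605-42156634 (minus strand) lies just after it, in the transcribed part.

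At least 1 match was present in 8 of the 10 windows (80.0%), against 28.1% of all 35116 promoter windows and 25.9% of the 17132 windows of genes with at least 10 counts in 3 libraries. Windows with 2 or more matches made up 60.0% of the members' windows, against 5.9% and 4.8%. TMEM30B held the most, with 6 matches, TMC4 held 5, and C6orf132 and PRRG4 held 3 each. In 5 members (TMEM30B, TMC4, C6orf132, PRRG4 and BSPRY) at least 1 pair of matches lay within the 30 bases shown. The TMEM125 window (chr1:43269733-43270032, plus strand) held none, which says only that these letters are not in that window. Counting only the bases before the start, the shares were 60.0% for the members, 23.8% for all windows and 22.0% for windows of expressed genes. The median GC content of the members' windows was 62.5%, against 58.7% for all windows and 64.3% for those of expressed genes. A match is a description of letters and not a measured binding site.

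**Figure D1:**
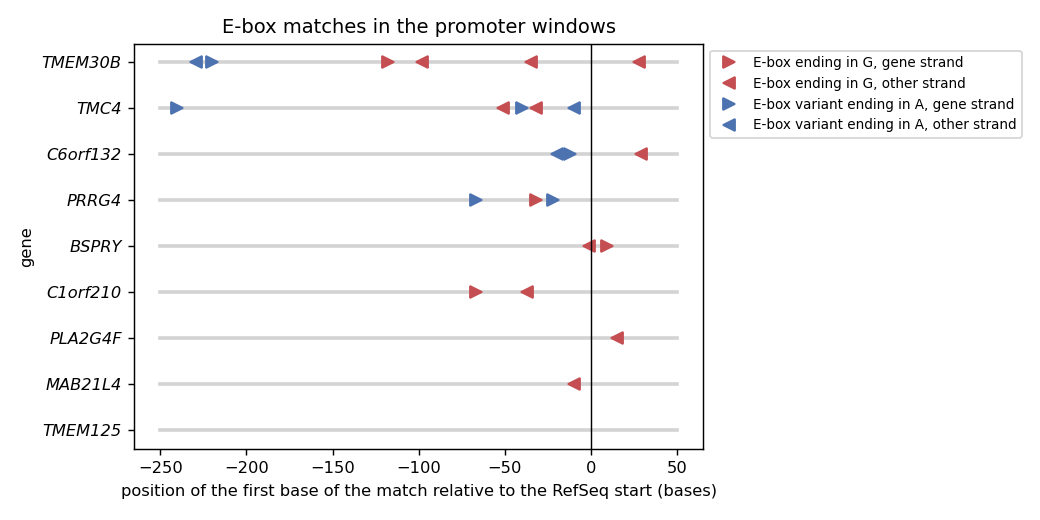
Position of each E-box match relative to the RefSeq start of the 9 genes with a promoter window (x axis, bases, from 250 before to 50 after the start; for MAB21L4 the window that holds a match). Colours give the E-box variant and arrowheads the strand; TMEM30B holds 6 matches, TMC4 holds 5 and TMEM125 none.

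Per kilobase of merged exon, TMC4 was the most abundant of the 10 genes in HT-29 iZEB1 with DMSO, at 24.9 ± 2 CPM per kilobase. TMEM125 (16.7 ± 1), BSPRY (15.4 ± 0.45), TMEM30B (14.7 ± 0.36) and C1orf210 (13.1 ± 0.15) followed on the same scale. The ranges of TMEM125 and BSPRY overlapped over the 3 libraries, as did those of BSPRY and TMEM30B, so that the order of these 3 genes was not resolved. C6orf132 was at 6.71 ± 0.17 CPM per kilobase, PRRG4 at 5.72 ± 0.25, BICDL2 at 3.72 ± 0.31, MAB21L4 at 2.53 ± 0.041 and PLA2G4F at 1.3 ± 0.14, with no overlap between neighbours in that order. The 2 genes with the lowest levels were thus MAB21L4 and PLA2G4F, which were also the 2 with the deepest fall under DOX.

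With DOX in DMSO all 10 genes were lower in every library than in any library with DMSO alone. The log2 fold change ran from -5.31 for MAB21L4 to -1.84 for C6orf132, with a median of -3.74 (all genes, 0). Of the 16978 genes tested, 25.1% were lower without overlap and 21.1% were called lower by edgeR's quasi-likelihood test, but nothing can be read from the members' count here since this contrast chose them. Over all genes 3265 were called higher and 3588 lower, or 4221 and 2877 with library totals in place of TMM scaling. Among the 10801 genes whose higher group reached 5 CPM, MAB21L4 had the largest fall (rank 1), PLA2G4F rank 2, BICDL2 rank 4, TMEM30B rank 6, C1orf210 rank 8 and TMEM125 rank 10. BSPRY was at rank 16, TMC4 at 18, PRRG4 at 43 and C6orf132 at 102. The values with RepSox, given gene by gene below, come from libraries that had no part in this choice where DOX with RepSox is set against RepSox alone.

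**Figure D2:**
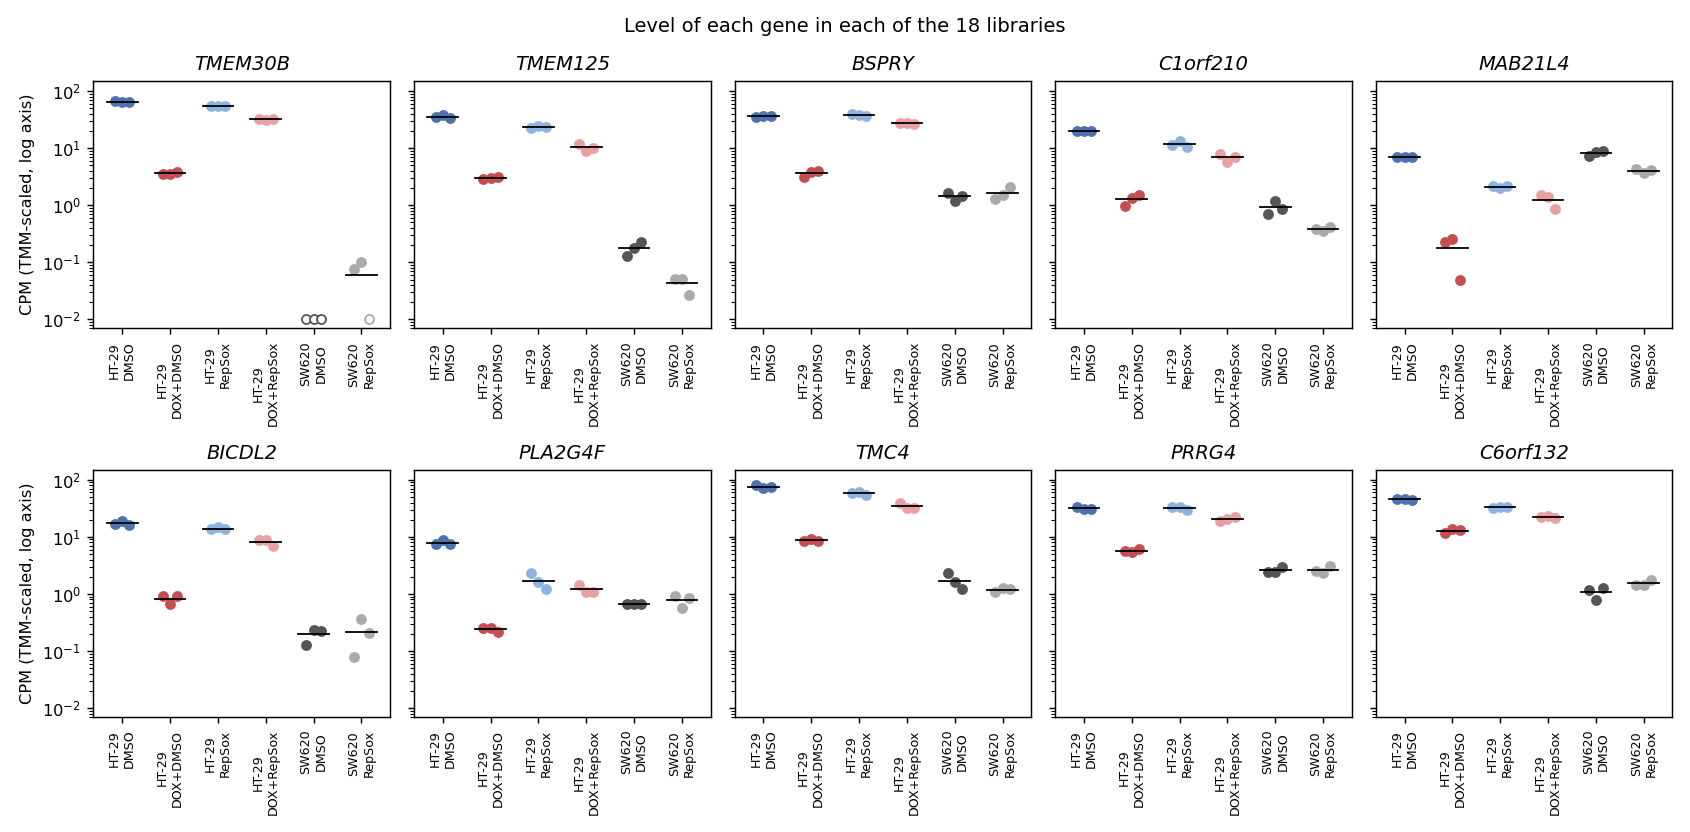
Level of each of the 10 genes (y axis, TMM-scaled CPM on a log axis) in each of the 18 libraries, by group (x axis). Points are libraries, lines are group means, and open points on the lower edge are libraries with 0 counts; in every panel the libraries with DOX and DMSO lie below all those with DMSO alone and below all those with DOX and RepSox.

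TMEM30B (chr14:61277370-61281840, minus strand, 1 exon) was read at 67.4, 64.7 and 64.5 CPM in the 3 libraries with DMSO and at 3.56, 3.59 and 3.84 CPM with DOX and DMSO. This was a difference of 17.8-fold (log2 -4.16, SE 0.075). With RepSox the values were 54.5, 54.9 and 55 CPM without DOX and 32.2, 31 and 32.4 CPM with it. TMEM30B was thus lower with DOX in both media without overlap, but kept 58.2% ± 1.4 of its level with DOX in RepSox and 5.59% ± 0.24 in DMSO. In RepSox the fall was 1.72-fold (log2 -0.78, SE 0.062, adjusted p = 8.55e-07, edgeR's quasi-likelihood test, as for all adjusted p-values of genes). TMEM30B lies whole within the span of PRKCH on the opposite strand. The strand setting of the counting is not given in the sources used here, and overlap of exons was not looked at. How far reads of the pair were mixed was thus not tested. PRKCH was at 26 ± 1.9 CPM with DMSO and 17.9 ± 0.65 with DOX and DMSO, a fall of 1.45-fold, and at 18.4 ± 0.98 and 17.7 ± 1.1 CPM in RepSox without and with DOX.

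TMC4, of the transmembrane channel-like family (chr19:54160108-54173250, minus strand, 15 merged exons), was read at 82.3, 70.4 and 75.7 CPM with DMSO and at 8.56, 9.23 and 8.5 CPM with DOX and DMSO. The fall was 8.66-fold (log2 -3.11, SE 0.094). In RepSox it was at 59.6, 60.2 and 54.2 CPM, and with DOX and RepSox at 39, 31.8 and 32.4 CPM. The groups did not overlap in either medium, and the fall in RepSox was 1.69-fold (log2 -0.75, SE 0.084, adjusted p = 0.000106). TMC4 kept 11.5% ± 0.54 of its level with DOX in DMSO and 59.2% ± 6.8 in RepSox.

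TMEM125, a multi-pass membrane protein of unclear role (chr1:43269994-43274002, plus strand), was read at 35.7, 37.5 and 33.1 CPM with DMSO and at 2.9, 2.97 and 3.18 CPM with DOX and DMSO. The fall was 11.7-fold (log2 -3.55, SE 0.11). With RepSox it was at 22.7, 24.9 and 23.8 CPM, and with DOX and RepSox at 11.8, 9.1 and 10 CPM. TMEM125 had the deepest fall of the 10 genes in RepSox, 2.3-fold (log2 -1.20, SE 0.093, adjusted p = 7.56e-07). Its 43.3% ± 5.7 kept was the lowest mean share of the 10. By library the shares were 49.5%, 38.3% and 42.3%, and those of MAB21L4 were 70.3%, 66% and 40.8%. The order of TMEM125 and MAB21L4 was thus not resolved. Its first 943 bases lie across the span of EBNA1BP2 on the opposite strand, and here too overlap of exons was not looked at. EBNA1BP2 was at 89.4 ± 4.3 CPM with DMSO and 61.7 ± 4.6 after DOX, and at 111 ± 8 with RepSox and 122 ± 5.4 after DOX, so that in RepSox it was not lower with DOX. In SW620 with DMSO EBNA1BP2 was at 127 ± 3.1 CPM and TMEM125 at 0.178 ± 0.049 CPM. The part of EBNA1BP2 reads in the TMEM125 counts was not tested.

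C1orf210, an endosomal membrane protein also called TEMP, lies 7880 bases from TMEM125 and in the opposite orientation (chr1:43281883-43285617, minus strand). It was read at 19.6, 19.8 and 20.1 CPM with DMSO and at 0.965, 1.36 and 1.54 CPM with DOX and DMSO. The fall was 15.3-fold (log2 -3.94, SE 0.15). The RepSox libraries gave 11.2, 13.2 and 10.5 CPM and those with DOX and RepSox 8.02, 5.81 and 7.12 CPM, with no overlap. This fall of 1.67-fold (log2 -0.74, SE 0.13, adjusted p = 0.00812) was no longer called without replicate 2 of DOX with RepSox (adjusted p = 0.0785) or without replicate 2 of RepSox (adjusted p = 0.0697). Both adjacent genes were lower with DOX in both media, which says nothing about their being adjacent. The choice of genes fixed that direction in DMSO, and in RepSox all 10 members had a negative log2 fold change. TMEM125 had the larger fall in RepSox and C1orf210 the larger fall in DMSO, and the difference between them was not tested.

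PRRG4, a transmembrane protein with a γ-carboxyglutamate domain (chr11:32829943-32858123, plus strand), was read at 33.2, 30.6 and 31.1 CPM with DMSO and at 5.61, 5.54 and 6.02 CPM with DOX and DMSO. The fall was 5.51-fold (log2 -2.46, SE 0.089). With RepSox it was at 33.2, 33.3 and 29.5 CPM and with DOX and RepSox at 19.1, 20.4 and 22.1 CPM. The libraries with RepSox alone thus overlapped those with DMSO, and DOX lowered it by 1.56-fold in RepSox (log2 -0.64, SE 0.08, adjusted p = 0.000356).

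BSPRY, a B-box and SPRY domain protein (chr9:113349541-113371233, plus strand), was read at 35.1, 36 and 37.2 CPM with DMSO and at 3.17, 3.9 and 3.92 CPM with DOX and DMSO. The fall was 9.82-fold (log2 -3.30, SE 0.089). With RepSox it was at 39, 37.6 and 36.8 CPM and with DOX and RepSox at 27.7, 27.9 and 26.3 CPM. Of the 8 genes called in RepSox, BSPRY had the smallest fall, 1.38-fold (log2 -0.47, SE 0.074, adjusted p = 0.00458), and it kept 72.2% ± 2.3 of its level.

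BICDL2, a relative of the BICD dynein adaptors (chr16:3027682-3036926, minus strand), was read at 16.8, 19.1 and 16.4 CPM with DMSO and at 0.914, 0.667 and 0.906 CPM with DOX and DMSO. The fall was 20.9-fold (log2 -4.39, SE 0.14). In RepSox it was at 13.5, 15 and 13.6 CPM and with DOX and RepSox at 8.69, 8.78 and 7.03 CPM. In RepSox the groups did not overlap, and BICDL2 fell 1.72-fold (log2 -0.78, SE 0.11, adjusted p = 0.00116). The span of an annotated antisense gene, AC108134.1, covers 4446 bases of the BICDL2 span. Its own counts followed those of BICDL2, at 2.22 ± 0.25 CPM with DMSO and 0.134 ± 0.075 after DOX. In RepSox they were at 1.54 ± 0.29 CPM without DOX and 1 ± 0.24 with it. Overlap of exons was not looked at, and how far reads of the pair were mixed was not tested. The protein-coding gene THOC6, also on the opposite strand, overlaps BICDL2 by 74 bases. THOC6 was at 38.2 ± 2.5 CPM with DMSO and 34.9 ± 3.2 with DOX and DMSO.

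C6orf132, an uncharacterised protein (chr6:42101118-42142619, minus strand), was read at 46.8, 46.4 and 44.6 CPM with DMSO and at 11.5, 13.9 and 13 CPM with DOX and DMSO. At 3.58-fold (log2 -1.84, SE 0.077) its fall was the smallest of the 10. In RepSox it was at 32.2, 32.9 and 33.9 CPM and with DOX and RepSox at 22.1, 23 and 21.6 CPM. The groups did not overlap, and the fall in RepSox was 1.48-fold (log2 -0.57, SE 0.075, adjusted p = 0.000611).

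MAB21L4, a member of the mab-21-like family (chr2:240886048-240896889, minus strand), was read at 7.14, 6.96 and 6.92 CPM with DMSO and at 0.229, 0.256 and 0.049 CPM with DOX and DMSO, the last from 9, 10 and 2 counts. The fall was 39.6-fold (log2 -5.31, SE 0.29). With RepSox alone it was already down to 2.2, 2.01 and 2.17 CPM, and with DOX and RepSox it was at 1.5, 1.4 and 0.869 CPM. The libraries with and without DOX did not overlap in RepSox, but the log2 difference of -0.76 (SE 0.23, 95% interval -1.24 to -0.28) did not pass the test (adjusted p = 0.175). It passed without replicate 1 of DOX with RepSox (adjusted p = 0.0315), without the filter on low counts (0.0265) and with DESeq2 (0.0409). These settings also called more of all genes. Over all settings its log2 difference ran from -0.9 to -0.56 and its adjusted p reached 0.674.

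PLA2G4F, the phospholipase (chr15:42139034-42156636, minus strand, 20 merged exons), was read at 7.42, 8.91 and 7.4 CPM with DMSO and at 0.254, 0.256 and 0.22 CPM with DOX and DMSO, from 29 counts over the 3 libraries. The fall was 32.4-fold (log2 -5.02, SE 0.26). With RepSox alone it was at 2.34, 1.61 and 1.2 CPM, and with DOX and RepSox at 1.44, 1.08 and 1.09 CPM. These groups overlapped, and the log2 difference of -0.51 (SE 0.23, 95% interval -0.99 to -0.03) did not pass the test (adjusted p = 0.328). MAB21L4 and PLA2G4F, the members that did not pass, had the fewest counts of the 10 with RepSox alone, 228 and 183 over 3 libraries.

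In RepSox, then, DOX lowered 8 of the 10 genes and raised 0, where 0.383% of the 16978 genes tested were called lower (65 genes) and 0.0942% higher (16 genes). Without overlap, 9 of the 10 were lower, against 8.83% of the genes tested. The median log2 fold change of the 10 was -0.74 and that of all genes was 0. Leaving out 1 library at a time, 7 to 9 of the 10 were called lower. The background moved far more: without replicate 1 of DOX with RepSox, 5.77% of genes were called lower (1007) and 3.8% higher (663), with 9 members among the lower. Without any other single library of the comparison, 0.126% to 0.218% were called lower, with 7 or 8 members among them. The difference between the falls in DMSO and in RepSox was not tested, because the DMSO libraries chose the genes. Side by side, the shares kept with DOX ran from 2.54% ± 1.6 (MAB21L4) to 27.8% ± 2.6 (C6orf132) in DMSO and from 43.3% ± 5.7 (TMEM125) to 72.2% ± 2.3 (BSPRY) in RepSox.

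**Figure D3:**
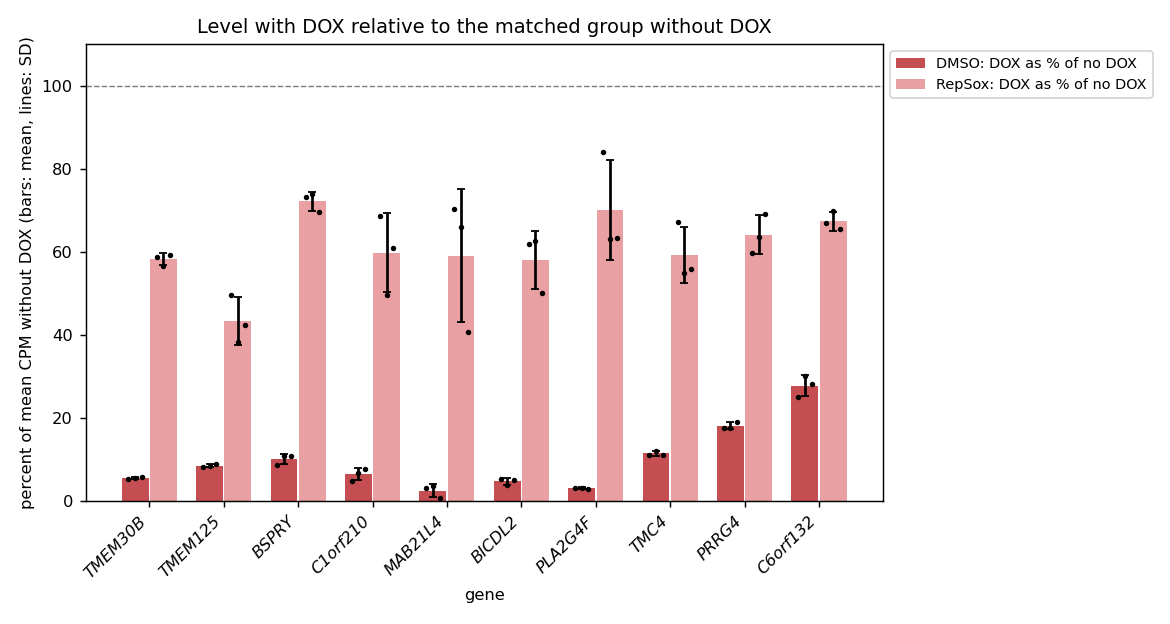
Level with DOX as a percentage of the mean level in the matched group without DOX (y axis), for each of the 10 genes (x axis), in DMSO and in RepSox. Bars are means of 3 libraries, lines are SDs and dots are libraries; in DMSO the means lie between 2.54% and 27.8% and in RepSox between 43.3% and 72.2%.

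Among libraries with DOX, RepSox went with a higher level of all 10 genes, without overlap, where 28.4% of genes tested were higher without overlap. The difference was largest for BICDL2 (9.77-fold, log2 3.29, SE 0.15), TMEM30B (8.64-fold, log2 3.11, SE 0.075) and BSPRY (7.4-fold, log2 2.89, SE 0.089), and smallest for C6orf132 (1.72-fold, log2 0.79, SE 0.078). These values share the DOX and DMSO libraries with the contrast that chose the genes and are given without a test. ZEB1 stood at 378 CPM in one group and 16 CPM in the other, as given above. With both agents none of the 10 genes was back at its DMSO level. The closest were BSPRY, at 75.6% of its mean with DMSO, and PRRG4, at 64.8%, and the furthest were PLA2G4F at 15.2% and MAB21L4 at 17.9%.

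RepSox without DOX went with lower levels of most of the 10 genes. In 8 the RepSox libraries lay below all DMSO libraries, where 21.3% of genes tested did so, and in BSPRY and PRRG4 the groups overlapped (log2 0.06 with SE 0.074, and 0.01 with SE 0.079). MAB21L4 was 3.31-fold lower (log2 -1.73, SE 0.2) and PLA2G4F 4.64-fold lower (log2 -2.22, SE 0.2). C1orf210 was 1.71-fold lower, TMEM125 1.5-fold, C6orf132 1.4-fold, TMC4 1.32-fold, BICDL2 1.25-fold and TMEM30B 1.2-fold. These values share the DMSO libraries with the choice of genes and carry no test. In HT-29 iZEB1 MAB21L4 and PLA2G4F were therefore low in every group that had either agent, and the small remaining step between RepSox and RepSox with DOX is taken from levels near 2 CPM.

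**Figure D4:**
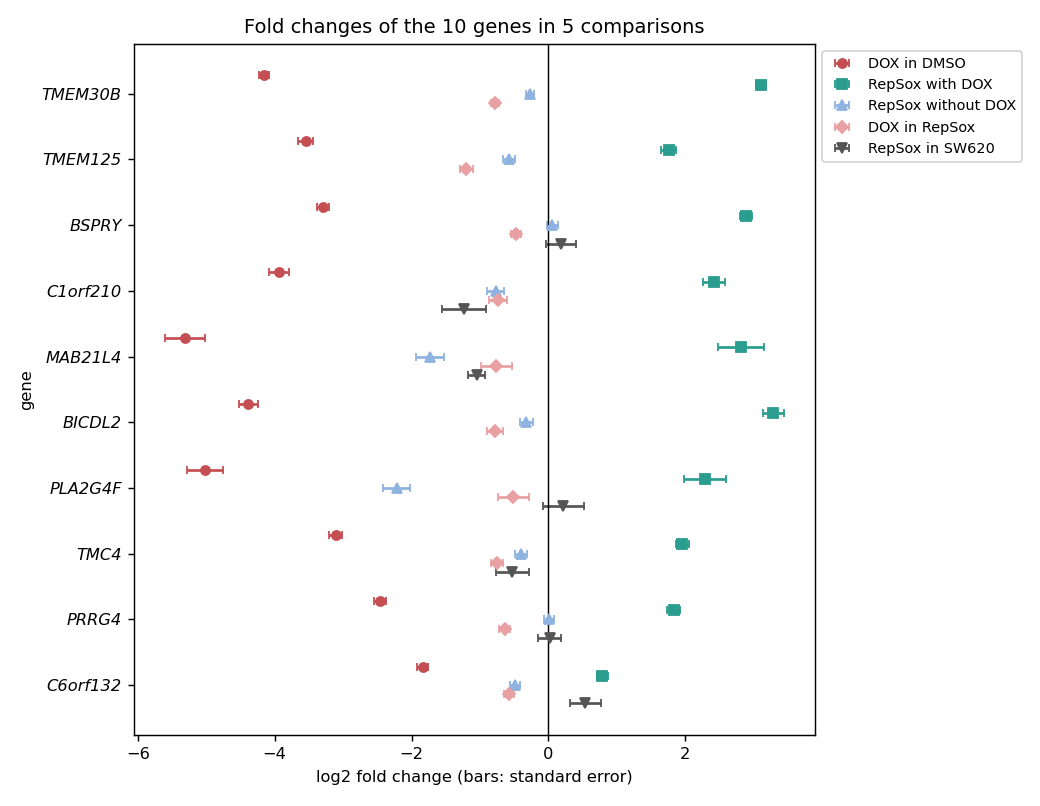
Log2 fold change (x axis) of each gene (y axis) in 5 comparisons, with standard errors as bars; the comparisons of DOX in DMSO, RepSox with DOX and RepSox without DOX share libraries with the choice of genes. The 10 genes lie between -5.31 and -1.84 for DOX in DMSO and between -1.20 and -0.47 for DOX in RepSox, and 3 genes below the filter in SW620 have no point for RepSox there.

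SW620 gave levels of the members in a line that had no part in their choice. With DMSO, 9 of the 10 genes were lower in SW620 than in HT-29 iZEB1 and MAB21L4 was higher, all without overlap, where 37.4% of the 19107 genes tested were lower and 41.6% higher in that sense. The DMSO libraries of HT-29 iZEB1 had a part in the choice of the genes, and these values carry no test. TMEM30B had 0 counts in all 3 SW620 libraries with DMSO, which puts it at least 2580-fold lower than in HT-29 iZEB1, taking 3 counts over the group as the limit. With RepSox it had 3, 4 and 0 counts. TMEM125 had 5, 7 and 9 counts with DMSO and 2, 2 and 1 with RepSox, and BICDL2 had 5, 9 and 9 counts with DMSO and 3, 14 and 8 with RepSox. These 3 genes are at the edge of detection in SW620, did not pass the filter within that line, and were not tested there for RepSox. The other 6 lower genes were at 0.67 ± 0.008 CPM (PLA2G4F) to 2.64 ± 0.33 CPM (PRRG4) in SW620 with DMSO.

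Set against HT-29 iZEB1 with both lines in RepSox, SW620 had 6 of the 7 genes that passed the filter in each line lower and 1 higher, where 37% of the 19107 genes tested were called lower and 39% higher. The other 3 passed the filter only through HT-29 iZEB1, where they are high, so their folds are a description with no test. TMEM30B was 904-fold lower in the mean (log2 -9.82), TMEM125 550-fold (log2 -9.10) and BICDL2 64.9-fold (log2 -6.02), from 7, 5 and 25 counts over the 3 SW620 libraries. Without replicate 2 of SW620 with RepSox the log2 difference was -10.48 for TMEM30B and -6.64 for BICDL2. TMC4 was 48.6-fold lower, C1orf210 30-fold, BSPRY 23.1-fold, C6orf132 21.3-fold and PRRG4 12-fold, each with an adjusted p of 1.89e-17 or less. PLA2G4F was 2.2-fold lower (log2 -1.14, SE 0.24, adjusted p = 0.000149), after RepSox had gone with a lower level in HT-29 iZEB1. In DMSO, described without a test, it was 11.8-fold lower. A strong fall needs a level to fall from, so the choice favoured genes expressed in HT-29 iZEB1 without DOX. The shares over all genes are therefore no matched background for the members in this comparison. The lines differ in much else and any difference in handling cannot be told apart from the line.

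MAB21L4 was the exception in both media. In SW620 it was read at 7.35, 8.71 and 8.95 CPM with DMSO and at 4.33, 3.62 and 4.11 CPM with RepSox, so that SW620 held the highest group level of this gene. In RepSox it was 1.89-fold higher in SW620 than in HT-29 iZEB1 (log2 0.92, SE 0.18, adjusted p = 5.37e-05). In DMSO the ratio was 1.19-fold (log2 0.25, SE 0.15), with libraries that did not overlap. The median of all genes in that comparison was 0.06, or 0.18 with library totals in place of TMM scaling, where MAB21L4 was at 0.38.

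RepSox in SW620 lowered 2 of the 7 members that passed the filter, MAB21L4 and C1orf210, where 9.24% of the 17147 genes tested were called lower (1584) and 10.2% higher (1754). With library totals in place of TMM scaling the split of all calls was 1355 higher and 2077 lower, and the same count of members was called. MAB21L4 fell 2.08-fold without overlap (log2 -1.05, SE 0.12, adjusted p = 3.15e-07). C1orf210 was read at 0.714, 1.18 and 0.855 CPM with DMSO and at 0.389, 0.359 and 0.421 CPM with RepSox, a fall of 2.35-fold (log2 -1.23, SE 0.32, adjusted p = 0.00777). That call was lost without replicate 2 of SW620 with DMSO (adjusted p = 0.0741). Without overlap, 17.1% of genes were higher and 16.8% lower. C6orf132 was higher in that sense but did not pass (log2 0.54, 95% interval 0.06 to 1.02, adjusted p = 0.111). TMC4 did not pass either (log2 -0.53, 95% interval -1.02 to -0.04, adjusted p = 0.124), and did so without replicate 3 of SW620 with DMSO (adjusted p = 0.0281). BSPRY (0.19, -0.27 to 0.65), PLA2G4F (0.22, -0.4 to 0.83) and PRRG4 (0.02, -0.33 to 0.36) overlapped between the groups, with log2 differences and 95% intervals as given and adjusted p-values of 0.62, 0.684 and 0.969. In the same comparison, of the 31 known epithelial genes described below 25 were tested, and 6 were called higher and 3 lower (median log2 -0.03). CDH1, the epithelial cadherin, rose 1.82-fold (adjusted p = 4.9e-07), and CLDN3, a tight-junction claudin, fell 1.5-fold (adjusted p = 0.000164).

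Over the 6 group means of log2 CPM, 8 of the 10 genes followed one shape closely, highest in HT-29 iZEB1 with DMSO or RepSox and low with DOX and DMSO and in SW620. Pearson's r to the average of the 10 scaled genes was between 0.919 and 0.993 for these 8, 0.803 for PLA2G4F and 0.077 for MAB21L4, which is part of that average like the others. Among 2619 candidate genes, the non-members with the most similar shape over the 6 means included ELMO3 (r = 0.9925), AATK (0.9907), GALNT12 (0.9884), IQANK1 (0.9866), MUC20 (0.9843), NECTIN4 (0.9833) and ESRP1 (0.9812). MUC20 has near-identical copies and its counts are uncertain. In HT-29 iZEB1 ELMO3 was at 60.6 CPM with DMSO, 21 after DOX in DMSO and 40.8 after DOX in RepSox, and in SW620 with DMSO it was at 12.9. ESRP1, an epithelial splicing regulator, was at 336, 78.3, 268 and 72.7 CPM in the same groups. By r, the 8 members ranked from 1 (C1orf210) to 91 (C6orf132) among the 2619 candidates. Many non-members were thus as close to this shape as some members. These r values rest on 6 points that share libraries with the choice of the genes.

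A list of 31 known epithelial genes, chosen with earlier results of these data known, gives the setting. With DOX in DMSO 30 of the 31 were called lower (median log2 -1.66), against 21.1% of all genes tested. CDH1 fell 2.02-fold, from 470 ± 16 to 232 ± 5.7 CPM. All 10 members fell by more, but they were chosen for their fall in this contrast, so nothing can be read from that. S100A14, an epithelial calcium-binding protein, fell 22.4-fold, MARVELD3, a tight-junction protein, 7.43-fold and AP1M2, an epithelial sorting adaptor subunit, 7.1-fold. ELF3 was at 141 CPM with DMSO and 134 CPM with DOX and did not pass. With DOX in RepSox, 7 of the 31 were called lower and 0 higher (median log2 -0.20), among them S100A14 (2.49-fold, adjusted p = 1.37e-07), PRSS8 (1.5-fold, 0.00812), CLDN7 (1.47-fold, 0.000275) and AP1M2 (1.47-fold, 0.000134). CDH1 did not pass in RepSox (log2 -0.13, adjusted p = 0.286).

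The closest relatives of the members did not share one direction. Of 23 family members 13 were tested. With DOX in DMSO 4 of them were called lower and 3 higher, against 21.1% and 19.2% of all genes tested. BICDL1, the paralog of BICDL2, fell 3.63-fold (34.3 to 9.43 CPM), and PRRG2, a relative of PRRG4, fell 3.76-fold (17.3 to 4.57 CPM). In the TMC family TMC8 fell 1.57-fold, and TMC5 rose 1.24-fold. With DOX in RepSox 0 of the 13 were called in either direction. BICDL1 was at 22 CPM with DOX and RepSox and at 23.7 CPM with RepSox (adjusted p = 0.637).

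Most P4-ATPases work with a TMEM30-type subunit, whereas ATP9A and ATP9B are known to do without one. TMEM30A, the paralog of TMEM30B, was at 181 CPM with DMSO and 199 CPM with DOX and DMSO. It did not pass the test there (log2 0.14, adjusted p = 0.0819). Of 14 P4-ATPase genes 12 were tested, and with DOX in DMSO 4 were called higher and 3 lower, against 19.2% and 21.1% of all genes tested. Their median log2 fold change was 0.33. ATP8B3 rose 3.06-fold (3.49 to 10.7 CPM) and ATP9A 1.42-fold, while ATP10B fell 16.1-fold (3.26 to 0.202 CPM, adjusted p = 3.2e-10) and ATP11A 1.49-fold. With DOX in RepSox 0 were called higher and 1 lower, ATP10B, which fell 3.22-fold (4.52 ± 0.81 to 1.4 ± 0.22 CPM, adjusted p = 7.82e-05).

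Outside the members, 18 protein-coding genes flank them and 13 were tested. With DOX in DMSO 3 were called higher, 3 lower and 7 not called (median log2 -0.12), where 19.2% of all genes tested were called higher and 21.1% lower. SLC38A6, beside TMEM30B, rose 1.55-fold, HDHD3, beside BSPRY, fell 1.38-fold, and PRKCH and EBNA1BP2, which overlap TMEM30B and TMEM125, fell 1.45-fold and 1.44-fold. With DOX in RepSox 0 of the 13 were called. TMC4 lies 225 bases from LENG1 and 161 bases from MBOAT7. With DOX in DMSO neither passed the test (log2 -0.09 with adjusted p = 0.561, and log2 -0.18 with adjusted p = 0.0847).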

How the data were processed

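RNA from 18 libraries was sequenced on a BGISEQ-500 per the labels' protocols. The deposited table holds whole-number counts per gene symbol, which the authors made on GRCh38.p13. Per the submitters' processing notes, their tools were HISAT2 2.2.0 and featureCounts 2.0.0, besides FastQC 0.11.9 and DESeq2 1.34.0. The sources used here give neither the annotation release nor the strand setting.

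Groups came from the labels. Tests used edgeR 4.0.16 in R 4.3.3 (TMM scaling, filterByExpr with a minimum count of 10, quasi-likelihood test, Benjamini-Hochberg adjustment over all genes tested, threshold 0.05). Fits held the 12 libraries of HT-29 iZEB1 (16978 genes), the 6 SW620 libraries alone (17147), and all 18 for the lines (19107). DESeq2 1.42.0, library totals, no filter, only the groups compared, a replicate block and leaving out each library were alternatives. Log2 fold changes are unshrunken, and CPM use TMM factors over all 18 libraries. For DOX in RepSox, simulated over 16625 genes, 74% of changes of 1.5-fold were called and 96% of those of 2-fold.

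The members and gene lists were chosen with earlier results of these data known. All members are named in every comparison. From each list, up to 4 called genes with the largest change and at least 5 CPM in the higher group are named, plus CDH1 and ZEB1. ELF3, BICDL1 in RepSox, TMEM30A, LYZ and the other single cell-type markers were named after their values were seen. So were ATP10B, LENG1, MBOAT7 and the genes overlapping members. Similar genes are the 8 with the highest Pearson's r over the 6 group means of log2(CPM + 0.1), each with at least a 4-fold range, of which 1 is not reported here. Gene coordinates are from GENCODE 29 on GRCh38, and promoter sequences from RefSeq on GRCh38.p14, both matched by symbol. Same-numbered replicates did not deviate together (correlations from -0.13 to 0.08), so the numbers were not taken to pair libraries.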

Additional observations from a re-analysis of the deposited data

Results flagged for a closer look

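For 8 of the 10 genes RepSox went with a lower level in every library without DOX and with a higher level in every library with DOX. Of all genes tested, 21.3% were lower without overlap in the first comparison and 28.4% higher in the second. The share of genes with both was not counted, so how unusual the pattern is cannot be said. The log2 fold changes without and with DOX were -0.27 and 3.11 for TMEM30B, -0.58 and 1.76 for TMEM125, and -0.77 and 2.42 for C1orf210. They were -1.73 and 2.82 for MAB21L4, -0.32 and 3.29 for BICDL2, and -2.22 and 2.29 for PLA2G4F. TMC4 had -0.40 and 1.96, and C6orf132 had -0.49 and 0.79. The difference was not tested, because both values share libraries with the contrast that chose the genes.

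Between the lines, the libraries of C6orf132 lay apart in opposite directions, with a log2 fold change of -0.49 in HT-29 iZEB1 without DOX and 0.54 in SW620, where it did not pass the test (adjusted p = 0.111). C1orf210 had 2.42 in HT-29 iZEB1 with DOX and -1.23 in SW620, which had no DOX, and MAB21L4 had 2.82 and -1.05. Without DOX in HT-29 iZEB1 both were lower with RepSox, as in SW620 (-0.77 and -1.73). None of these differences was tested.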

How the results depend on the processing

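In RepSox, the count of all genes called with DOX (16 higher, 65 lower) depended on the processing more than the members did: DESeq2 gave 79 and 159, no filter on low counts 199 and 385, and leaving out 1 library at a time 5 to 663 and 22 to 1007. With the replicate block it was 27 and 82, with 8 members lower as without the block, and the block changed no call of a member in any tested comparison. Members called lower ran from 7 to 9. The cause of the large count without replicate 1 of DOX with RepSox was not tested. For RepSox in SW620, leaving out 1 library gave 1055 to 1899 genes lower and 1 to 3 members lower. Among members that were not called there, PRRG4 (0.02, and -0.11 to 0.13 leaving out 1 library) changed sign with library totals (-0.02), without replicate 3 of RepSox, and without replicates 1 (-0.03) or 2 (-0.04) of DMSO. BSPRY (0.19, and -0.03 to 0.33) changed sign without replicate 3 of RepSox (-0.03). Between the lines in RepSox, the 7 members that passed the filter in each line kept their direction and call under every alternative run. Depth limits MAB21L4 and PLA2G4F with DOX, and TMEM30B, TMEM125 and BICDL2 in SW620.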
